A study of Mus musculus with 2 samples.

Results

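A set of 10 genes that decide between survival, growth arrest and death of a cell was followed through 4 cell classes of 2 mouse mammary tumor models. They were the BH3-only genes Pmaip1, Bbc3 and Bcl2l11, the effectors Bax and Bak1, the survival genes Mcl1, Bcl2 and Bcl2l1, and the p53 genes Cdkn1a and Mdm2, chosen by name out of the 33696 genes in the count matrices. PyMT-M and PyMT-N are sub-lines of tumors from mice that carry the polyoma middle T antigen under the mouse mammary tumor virus promoter. Each line was transplanted into female C57BL/6 mice of 6 to 8 weeks, and the study classes PyMT-M as High-MAC (rich in macrophages) and PyMT-N as Low-MAC. From each model the cells of 3 tumors were depleted of CD45+ and Ter119+ cells, enriched and sorted for CD31+ CD144+ endothelial cells, and pooled into 1 10x Genomics 3′ library. A condition was therefore 1 library, so no difference was tested, and every interval below (95%, exact) covers counting error only and not the spread between tumors.

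The Bcl2 family sets whether the outer membrane of the mitochondrion stays intact. BH3-only proteins, made in response to stress, bind and block survival proteins such as Bcl2, Bcl2l1 and Mcl1, and once these are occupied Bax and Bak1 form pores that release cytochrome c. The tumor suppressor p53 induces several of these genes (Pmaip1, Bbc3, Bax) as well as Cdkn1a, which halts the cell cycle, and Mdm2, which feeds back to degrade p53. In endothelial cells, vascular endothelial growth factor is known to raise Bcl2, and Bcl2l11 is known for its part in the regression of vessels that lose this signal.

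Cells were kept with at least 200 genes and at most 10% mitochondrial UMIs (unique molecular identifiers, 1 per captured RNA molecule), which left 6719 of 7821 barcodes in PyMT-M and 5607 of 6974 in PyMT-N. Blood endothelial cells (at least 5 UMIs of Pecam1, Flt1, Emcn and Kdr, at most 1 of Krt8, Krt18 and Rhox5, and no Prox1) numbered 588 in PyMT-M and 1065 in PyMT-N. Tumor cells (at least 3 UMIs of Krt8, Krt18 and Rhox5, and no Pecam1 or Flt1) numbered 4902 and 3306, although the sort was for endothelial cells. Fibroblast cells (Col3a1 of at least 3000 CPM, the UMIs of a gene scaled to a common total of 1e6 per class or cell) numbered 58 and 63, and lymphatic cells (at least 3 UMIs of Prox1, Mmrn1 and Reln) 20 and 207. The libraries shared 20 barcodes, of which 4 were of tumor cells in both, and 14 and 11 cells met the rule of more than 1 class. The libraries held 141067264 and 116150425 UMIs over all barcodes. Depth per cell differed between the libraries outside the tumor cells: the median UMI count of a blood endothelial cell was 5206.5 in PyMT-M but 12696 in PyMT-N, and the fibroblast and lymphatic cells of PyMT-M were likewise shallower, while the median of a tumor cell was 23715.5 and 20757.5.

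The blood endothelial, lymphatic and tumor classes were checked against genes that their rule did not use. Such values for fibroblast cells, which rest on Col3a1 alone, are not reported here. Blood endothelial markers outside the rule summed in that class to 6702 CPM in PyMT-M and to 6542 CPM in PyMT-N, and the lymphatic markers Lyve1 and Ccl21a stood at 1449 and 1416 CPM in the 20 lymphatic cells of PyMT-M. Tumor cells lacked the usual epithelial genes, with 9 such markers (Epcam and Cdh1 among them) summing to 3.67 and 2.05 CPM, so the class rests on the genes of its rule. Hematopoietic markers (10 genes, Ptprc, Lyz2 and Cd79a among them, of which 1 was at 0 in PyMT-M and none in PyMT-N) summed to 38.5 CPM among blood endothelial cells in PyMT-M, against 409.7 CPM in PyMT-N, with the macrophage gene C1qa at 0.303 and 113 CPM. The main differences were read again without cells that carry markers of other cell types. These were cells with more than 1 UMI over a list of markers, so that cells with 1 UMI stayed. Of the hematopoietic genes the list held Ptprc, Lyz2, Csf1r, C1qa, Cd3e and Cd79a.

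**Figure D1:**
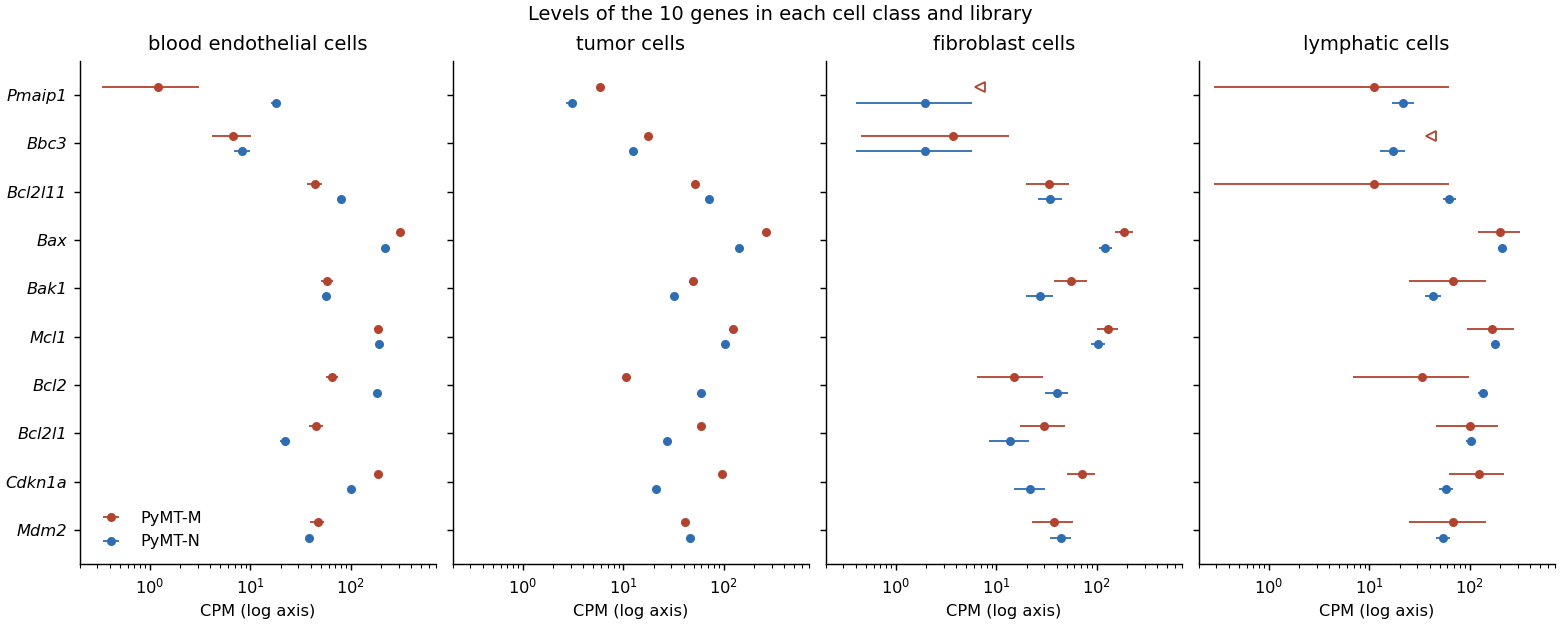
Level of each of the 10 genes in CPM (log axis) in the 4 cell classes, PyMT-M in red and PyMT-N in blue. Bars are 95% exact Poisson intervals of the summed UMI count, and an open triangle marks the upper limit where no UMI was counted. In the blood endothelial cells Pmaip1 stood at 1.21 against 18.0 CPM, and Bcl2 was lower in PyMT-M in all 4 classes.

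Set side by side, the blood endothelial cells of the 2 models differed most in Pmaip1 and Bcl2, both lower in PyMT-M. Bcl2l1 was at the limit of a 2-fold difference, higher in PyMT-M, and Cdkn1a stood just inside it. Called at 2-fold or more, with at least 50 UMIs over both libraries, 1 member of 10 was higher in PyMT-M (Bcl2l1), where 4.17% of the 11547 genes so compared were, and 2 members were lower (Pmaip1 and Bcl2), where 6.99% were. The median log2 ratio of the 10 members was -0.01, and that of all compared genes -0.01.

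Pmaip1 (Noxa, ENSMUSG00000024521), a BH3-only gene whose product chiefly occupies Mcl1, gave 4 UMIs in the 588 blood endothelial cells of PyMT-M and 269 in the 1065 of PyMT-N. These come to 1.21 CPM (0.331 to 3.11) against 18.0 CPM (15.9 to 20.3), a log2 ratio of -3.89 (-5.78 to -2.52). The intervals did not overlap, and the level in PyMT-N was 14.9 times that in PyMT-M. In PyMT-N the transcript was spread over many cells: 16% of blood endothelial cells had a UMI, against 0.510% in PyMT-M, and no cell had more than 6. Thinned to 3000 UMIs a cell, so that depth was equal, which left 480 of 588 cells in PyMT-M and 1058 of 1065 in PyMT-N, 3 of 480 cells had one in PyMT-M (0.625%, 0.129 to 1.82) and 4.16% (3.04 to 5.54) in PyMT-N. The log2 ratio was -4.90 without cells that carry markers of other cell types, and -2.44 at the equal depth.

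Tumor cells went the other way. Pmaip1 stood there at 5.90 CPM (5.47 to 6.35) in PyMT-M, against 3.07 CPM (2.69 to 3.49) in PyMT-N (log2 ratio 0.94, 0.73 to 1.16). The difference between the ratios of both classes was -4.84 (-6.74 to -3.45). Within PyMT-N the blood endothelial level was 5.88 times that of tumor cells, whereas within PyMT-M it was the tumor level that was higher, by 4.86 times. Lymphatic cells of PyMT-N, at 21.9 CPM, lay within counting error of the blood endothelial cells beside them, and fibroblast cells of both libraries gave 3 UMIs in all. Free RNA is found in every droplet of such libraries, and no class here is known to lack these 10 genes. Tumor RNA in the endothelial cells was therefore estimated from 20 genes of at least 500 CPM in tumor cells with the lowest relative level in blood endothelial cells. They stood at a median of 14.9% of their tumor level in PyMT-M and 2.62% in PyMT-N. The same shares of the tumor level of Pmaip1 come to 0.880 CPM in PyMT-M and 0.0805 CPM in PyMT-N. The first lies within the interval of the level in PyMT-M, so the few Pmaip1 UMIs counted there cannot be told apart from tumor RNA.

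Bbc3 (Puma), a BH3-only gene induced by p53, was scarce in blood endothelial cells. It stood at 6.67 CPM (4.18 to 10.1) in PyMT-M, against 8.25 CPM (6.86 to 9.84) in PyMT-N, and the log2 ratio of -0.31 (-1.03 to 0.36) lay across 0. In tumor cells it was higher, at 17.6 CPM in PyMT-M and 12.4 CPM in PyMT-N (log2 ratio 0.51, 0.40 to 0.62). Tumor cells exceeded blood endothelial cells by 2.64 times in PyMT-M and 1.50 times in PyMT-N. In blood endothelial cells the estimate of tumor RNA amounted to 2.62 of 6.67 CPM in PyMT-M and 0.324 of 8.25 CPM in PyMT-N. Over the alternative settings the blood endothelial log2 ratio between the libraries ran from -1.41 to -0.30. The highest level in PyMT-N was that of lymphatic cells (17.3 CPM), and the 20 lymphatic cells of PyMT-M gave no UMI, which sets a limit of 33.7 CPM at 3 UMIs and of 41.4 CPM by the exact interval.

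Bcl2l11 (Bim), the BH3-only gene that responds to loss of growth factors, was lower in PyMT-M. Blood endothelial cells held 43.7 CPM (36.8 to 51.4) in PyMT-M, against 79.7 CPM (75.3 to 84.4) in PyMT-N (log2 ratio -0.87, -1.13 to -0.62). Tumor cells had the same direction with a smaller difference, 51.8 against 71.9 CPM (log2 ratio -0.47, -0.53 to -0.42). Fibroblast cells did not differ beyond counting error (33.5 and 34.6 CPM), but this depended on the setting. Without cells in more than 1 class their log2 ratio was -1.86, on too few UMIs for a call. With the mean over cells of the CPM of each cell it passed 2-fold, lower in PyMT-M. Lymphatic cells of PyMT-M gave 1 UMI. In single cells counts reached 25 UMIs in a blood endothelial cell of PyMT-N, against 7 in PyMT-M.

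Of a BH3-only list (8 genes), 7 could be compared in blood endothelial cells, and 2 of these were at least 2-fold lower in PyMT-M (Pmaip1 and Bmf) and none higher. Over all compared genes there, 6.99% were lower and 4.17% higher. Bmf, a BH3-only gene tied to the cytoskeleton, stood at 6.07 against 17.6 CPM (log2 ratio -1.53, -2.27 to -0.88). The highest ratios of the list were those of Bid (0.33, -0.37 to 0.98) and Bad (0.16, -0.07 to 0.38), both across 0. The list's median was -0.51, and 5 of the 7 ratios were below 0. In tumor cells 1 of 7 was higher (Bik) and 2 lower (Bid and Bmf), where 21.0% of all compared genes were higher and 25.6% lower, with a median of -0.47.

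Bax, one of the pore-forming effectors, was higher in PyMT-M in both large classes. Blood endothelial cells held 313 CPM (294 to 332) in PyMT-M, against 219 CPM (212 to 227) in PyMT-N (log2 ratio 0.51, 0.41 to 0.61). Tumor cells held 262 and 143 CPM (log2 ratio 0.88, 0.84 to 0.91), and fibroblast cells 188 and 122 CPM (0.62, 0.26 to 0.98). At equal depth 57.1% of the blood endothelial cells of PyMT-M and 44.1% of those of PyMT-N had a Bax UMI, and before thinning 66.8% and 85.1%. The estimate of tumor RNA amounted to 39.1 of the 313 CPM in PyMT-M and 3.74 of the 219 CPM in PyMT-N. With it taken off, the blood endothelial log2 ratio was 0.34, the lowest of the alternative settings. Bax was above the tumor and fibroblast levels in the blood endothelial cells of both libraries, by 1.19 to 1.80 times.

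Bak1, the other effector, did not differ between the blood endothelial cells beyond counting error, at 58.2 CPM (50.3 to 67.1) in PyMT-M, against 56.7 CPM (52.9 to 60.6) in PyMT-N. The interval of the log2 ratio was -0.19 to 0.27. Tumor cells held 49.9 against 32.2 CPM (log2 ratio 0.63, 0.56 to 0.70), and fibroblast cells 55.8 against 27.4 CPM (1.03, 0.30 to 1.74). Bok, the third effector and not among the 10 genes, was lower in the blood endothelial cells of PyMT-M, at 96.7 against 150 CPM (-0.63), so none of the 3 effectors passed 2-fold there.

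Bcl2, the founding survival gene of the family, was lower in PyMT-M in all 4 classes. In blood endothelial cells it stood at 64.9 CPM (56.5 to 74.2) in PyMT-M, against 184 CPM (177 to 191) in PyMT-N (log2 ratio -1.50, -1.71 to -1.30). Tumor cells held 10.6 and 58.8 CPM, a larger difference (log2 ratio -2.48, -2.57 to -2.39). The ratio was -1.42 (-2.70 to -0.35) in fibroblast cells and -1.99 (-4.28 to -0.43) in lymphatic cells, the latter from 3 UMIs in PyMT-M. At equal depth 14.4% (11.4 to 17.8) of the blood endothelial cells of PyMT-M had a Bcl2 UMI against 37.9% (35.0 to 40.9) in PyMT-N, and before thinning 24.3% and 71.2%. In the lymphatic cells the ratio was -0.38 at equal depth.

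Gene length moved with this result. Bcl2 spans over 100 kb, and genes of that span were lower in PyMT-M as a whole, with a median log2 ratio of -0.15 in blood endothelial, -0.76 in tumor and -0.56 in fibroblast cells. Genes under 20 kb had medians of 0.09, 0.11 and 0.19 in the same order. With the median of each span class set to 0, Bcl2 stood at -1.35, -1.71 and -0.86 in the 3 classes, so that the 2-fold call was lost in fibroblast cells. Lymphocytes carry Bcl2 too, and the lymphocyte gene Cd79a stood in this class at 6.37 CPM in PyMT-M and at 63.1 CPM in PyMT-N. Without cells that carry markers of other cell types the ratio was -1.35.

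In PyMT-N, Bcl2, Cdkn1a and Pmaip1 were each at least 2-fold higher in blood endothelial cells than in tumor and in fibroblast cells, and in PyMT-M this held for Bcl2 alone among the 10 genes. Its level there was 6.15 times that of tumor cells in PyMT-M and 3.12 times in PyMT-N, and 4.36 and 4.61 times that of fibroblast cells. In PyMT-N the order was blood endothelial (184 CPM), lymphatic (134), tumor (58.8) and fibroblast (39.8), each step beyond counting error. In PyMT-M the order was blood endothelial, lymphatic, fibroblast and tumor, and neighbours in it did not differ beyond counting error.

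Bcl2l1 (Bcl-x), a survival gene with a long protective and a short opposing isoform that 3′ counts do not separate, was higher in PyMT-M. Blood endothelial cells held 44.9 CPM (37.9 to 52.7) in PyMT-M, against 22.2 CPM (19.9 to 24.7) in PyMT-N (log2 ratio 1.02, 0.73 to 1.30). Tumor cells held 59.9 and 27.5 CPM (1.12, 1.05 to 1.19). Fibroblast cells gave 29.8 and 13.7 CPM on 16 and 21 UMIs, too few to be compared. Their log2 ratio was 0.15 without cells in more than 1 class. The blood endothelial call at 2-fold was thin: the ratio was 0.78 at equal depth and 0.74 after tumor RNA was taken off, both under 2-fold. Lymphatic cells stood apart, with 101 CPM in PyMT-M and 102 CPM in PyMT-N. These levels were 2.25 and 4.61 times the blood endothelial ones, the first of them from 9 UMIs.

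Mcl1, the short-lived survival protein that Pmaip1 binds, did not differ between the blood endothelial cells beyond counting error, at 185 CPM (171 to 201) in PyMT-M, against 192 CPM (185 to 199) in PyMT-N. The interval of its log2 ratio, -0.18 to 0.07, lay across 0. It was higher in the tumor cells of PyMT-M, at 124 against 103 CPM (0.28, 0.24 to 0.32). In both libraries the blood endothelial level exceeded that of tumor cells, by 1.49 times in PyMT-M and 1.87 times in PyMT-N.

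The list of survival genes held 8 genes, of which 7 could be compared in blood endothelial cells. Of these 1 (Bcl2l1) was at least 2-fold higher in PyMT-M and 4 were lower (Bcl2, Bcl2a1a, Bcl2a1b and Bcl2a1d), with a median of -1.50. Over all compared genes 4.17% were higher and 6.99% lower. The 3 Bcl2a1 genes are near-identical copies whose reads can be split between them, and they are active in myeloid cells. Bcl2a1b stood at 3.34 against 21.1 CPM, beside the hematopoietic markers given above. Bcl2l2 did not differ beyond counting error (10.3 and 11.7 CPM).

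**Figure D2:**
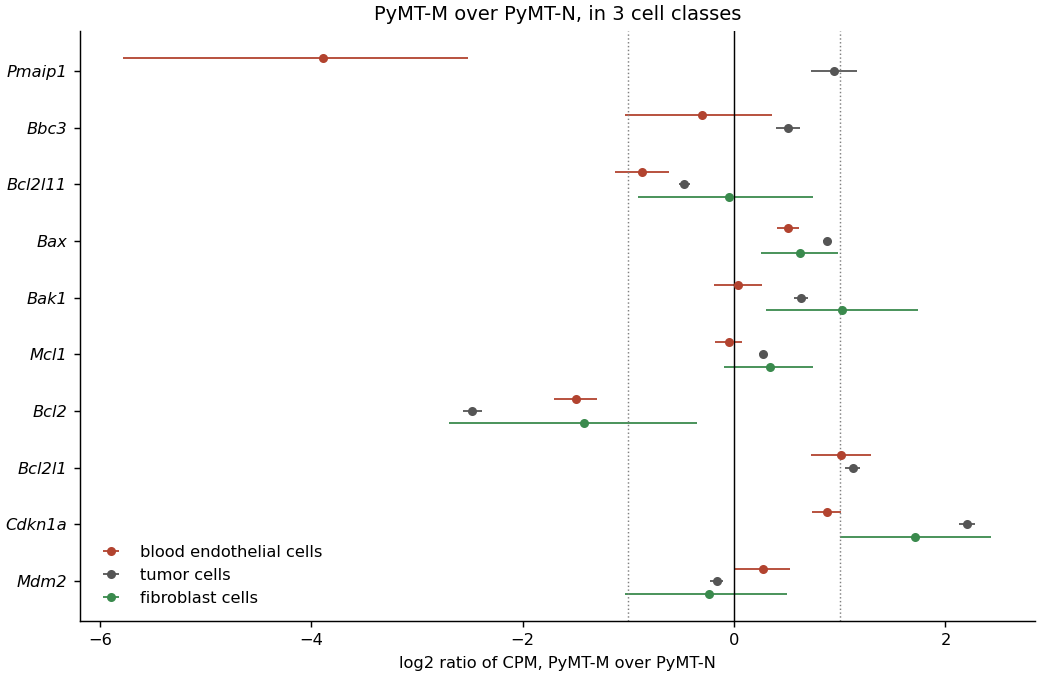
Log2 ratio of CPM, PyMT-M over PyMT-N, for each gene with at least 50 UMIs in blood endothelial (red), tumor (grey) and fibroblast (green) cells. Bars are 95% exact intervals of a ratio of 2 counts and dotted lines mark 2-fold. Pmaip1 lay at -3.89 in blood endothelial and 0.94 in tumor cells, while Bcl2 was below and Cdkn1a above 0 in all 3 classes.

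Cdkn1a (p21), the inhibitor of cyclin-dependent kinases that p53 induces, had a higher CPM in PyMT-M in every class. In blood endothelial cells it stood at 185 CPM (170 to 200) in PyMT-M, against 101 CPM (95.5 to 106) in PyMT-N (log2 ratio 0.88, 0.74 to 1.01). The difference was larger in tumor cells, at 96.8 against 21.0 CPM (2.21, 2.13 to 2.28), and was 1.71 (1.00 to 2.43) in fibroblast and 1.09 (0.06 to 1.96) in lymphatic cells. At equal depth 35.4% (31.1 to 39.9) of the blood endothelial cells of PyMT-M and 20.9% (18.5 to 23.5) of those of PyMT-N had a Cdkn1a UMI, and 21.8% against 4.51% of tumor cells. Before thinning these shares were 44.7% and 53.6% of blood endothelial and 69.7% and 18.7% of tumor cells. In fibroblast cells the shares at equal depth were alike, 7.84% of 51 cells in PyMT-M and 8.06% of 62 in PyMT-N. Of the 38 Cdkn1a UMIs in fibroblast cells of PyMT-M, 16 lay in 1 cell. In the lymphatic cells the ratio ran from 0.11 to 1.12 over the alternative settings. The estimate of tumor RNA amounted to 14.4 of the 185 CPM in PyMT-M.

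Blood endothelial cells held the highest Cdkn1a level of the 4 classes in each library, although in PyMT-M neighbours in the order did not differ beyond counting error. Within PyMT-N every step down to lymphatic (58.2 CPM) and fibroblast cells (21.6 CPM) was beyond counting error, and fibroblast and tumor cells were not apart. Relative to tumor cells the blood endothelial level was 1.91 times higher in PyMT-M and 4.79 times in PyMT-N, and relative to fibroblast cells 2.61 and 4.66 times.

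Mdm2, the ligase that keeps p53 low, differed little. Blood endothelial cells held 46.7 CPM (39.6 to 54.7) in PyMT-M, against 38.6 CPM (35.5 to 41.9) in PyMT-N, and the log2 ratio of 0.27 had an interval of 0.01 to 0.53. In tumor cells the ratio was -0.16 (-0.23 to -0.10), from 41.3 and 46.2 CPM, but it was 0.04 when mitochondrial, ribosomal-protein and hemoglobin genes were left out of the total. One tumor cell of PyMT-N held 57 Mdm2 UMIs, against at most 16 in PyMT-M.

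**Figure D3:**
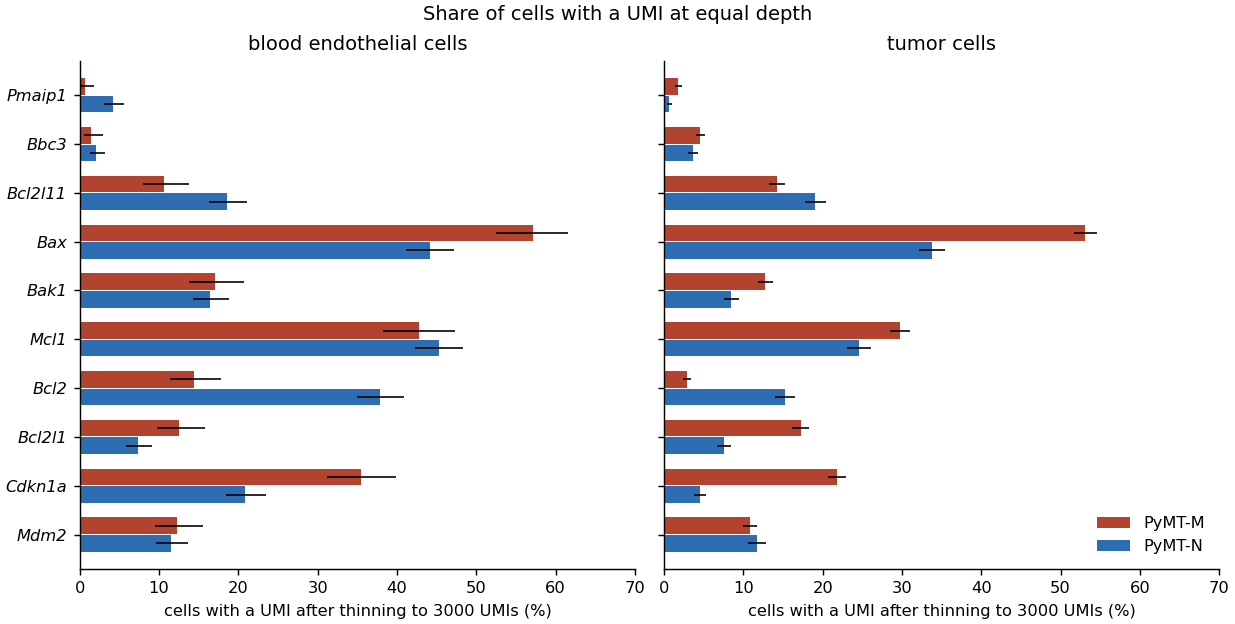
Percent of blood endothelial (left) and tumor (right) cells with at least 1 UMI of each gene after each cell was thinned to 3000 UMIs, PyMT-M in red and PyMT-N in blue. Bars start at 0, and error bars are 95% exact binomial intervals. Bcl2 was found in 14.4% against 37.9% and Cdkn1a in 35.4% against 20.9% of blood endothelial cells.

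The bases around the start sites of these genes were searched for the p53 response element, 20 letters made of a pair of like sites of 10 letters side by side. A match had to keep both 4-letter cores and could miss up to 3 of the other letters. RefSeq windows from 250 bases before to 50 bases after a start (GRCm38.p6, while the counts were made on mm39) were at hand for 9 of the 10 genes, in 15 windows, and not for Pmaip1. A match lay in 1 window of Cdkn1a and 1 of Bbc3, and in 188 of all 32851 windows (0.572%), or 0.673% of genes. Both windows are shown because no other window of the members held a match, which is in capitals. The first is of an upstream start of Cdkn1a (chr17:29090729-29091028, plus strand), where the match begins 51 bases before the start and misses 1 letter of the consensus. The second is of Bbc3 (chr7:16309333-16309632, plus strand), where it begins 97 bases before the start and misses 3.
Cdkn1a: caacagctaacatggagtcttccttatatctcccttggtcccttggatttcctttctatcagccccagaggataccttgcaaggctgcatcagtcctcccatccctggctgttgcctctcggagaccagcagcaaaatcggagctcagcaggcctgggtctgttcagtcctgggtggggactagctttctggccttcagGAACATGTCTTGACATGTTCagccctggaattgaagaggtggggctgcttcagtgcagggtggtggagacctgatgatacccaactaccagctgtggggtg
Bbc3: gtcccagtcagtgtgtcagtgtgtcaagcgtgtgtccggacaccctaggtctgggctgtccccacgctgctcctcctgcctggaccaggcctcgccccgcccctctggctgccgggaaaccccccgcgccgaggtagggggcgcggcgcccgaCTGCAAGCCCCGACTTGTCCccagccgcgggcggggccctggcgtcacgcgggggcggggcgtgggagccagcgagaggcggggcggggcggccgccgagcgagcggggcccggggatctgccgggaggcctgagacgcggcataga
A match is a description of the letters, and its absence from the other windows says only that the letters are not there.

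A list of 32 p53 targets, 5 of them members, was split evenly in blood endothelial cells. Of the 31 that could be compared, 1 was at least 2-fold higher in PyMT-M (Eda2r) and 3 were lower (Pmaip1, Bcl6 and Ddit4), with a median of 0.06, 16 ratios above and 15 below 0. Over all compared genes 4.17% were higher and 6.99% lower. Eda2r, a receptor gene induced by p53, stood at 10.6 against 3.42 CPM, from 35 and 51 UMIs. Cdkn1a and Sesn2 (0.74) followed it as the highest of the list. The lowest after Pmaip1 were Bcl6 (-1.30) and Ddit4 (-1.02).

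The same list was less even in tumor cells, where 4 of 32 were higher and 11 lower, with a median of -0.22. Tigar, which restrains glycolysis, was the highest at 10.8 against 0.622 CPM, followed by Cdkn1a and Sesn2 (1.89). Eda2r, high in the endothelial cells of PyMT-M, was nearly absent from its tumor cells, at 0.0745 against 6.00 CPM. Perp, a p53 target in desmosomes, gave no UMI in 4902 tumor cells of PyMT-M against 223 in PyMT-N. At a limit of 3 UMIs over the class the log2 ratio would be -6.89, and its exact interval reached up to -6.58. Trp53inp1 stood at 0.463 against 15.0 CPM. Beside the shares of all genes (21.0% and 25.6%), of the 10 members 2 were at least 2-fold higher in tumor cells of PyMT-M (Bcl2l1 and Cdkn1a) and 1 lower (Bcl2).

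Among genes that control p53 itself, none of 6 in blood endothelial and none of 5 in tumor cells passed 2-fold. Trp53, which encodes p53, stood at 104 CPM (PyMT-M) and 106 CPM (PyMT-N) in blood endothelial cells, and at 138 and 93.1 CPM in tumor cells. Mdm4, its second restraint, stood at 47.3 and 45.6 CPM in the former. Cdkn2a, whose product blocks Mdm2, was at 2.43 and 4.43 CPM there and too scarce in tumor cells to compare.

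Downstream of the mitochondrion, none of 12 caspase and apoptosome genes passed 2-fold in blood endothelial cells. The highest ratios were those of Htra2 (0.90), Cycs (0.44) and Diablo (0.39), all released from mitochondria, while Casp6, an executioner caspase, stood at -0.66 and Apaf1, the scaffold of the apoptosome, at -0.25. In tumor cells 3 of 12 were at least 2-fold lower in PyMT-M, Casp6 and Apaf1 among them, where 25.6% of all compared genes were.

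Among inhibitors of apoptosis none of 6 passed 2-fold in blood endothelial cells, and the largest ratio was that of Birc5 (0.89), which is also a mitotic gene. Cycling markers, of which Birc5 is itself one (96.4 and 51.9 CPM), summed to 613 CPM in PyMT-M and 334 CPM in PyMT-N. In tumor cells Birc5 (3.51) and Birc2 (1.12) were higher and Xiap (-1.28) and Cflar (-1.19) lower, beside 21.0% and 25.6% of all genes, with the cycling markers at 1397 and 165 CPM.

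No gene of 7 death receptors and ligands passed 2-fold in blood endothelial cells. Tnfsf10, which encodes the ligand TRAIL, had the highest ratio (0.73, 70.7 against 42.5 CPM) and Tradd the lowest (-0.11). In tumor cells 1 of 7 was lower, also Tnfsf10, at 2.63 against 5.39 CPM, where 25.6% of all compared genes were lower.

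Of 7 inhibitors of cyclin-dependent kinases, Cdkn1a among them, none passed 2-fold in blood endothelial cells, and after Cdkn1a the highest was Cdkn2c (0.59) and the lowest Cdkn2a (-0.87) and Cdkn1b (-0.47). In tumor cells Cdkn1a was the one of 5 that was higher, and Cdkn1b, at 36.6 against 76.4 CPM, the one that was lower. Over all compared genes 21.0% were higher and 25.6% lower there.

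Stress programs that also reach Cdkn1a and the BH3-only genes were read beside them. The integrated stress response, the shared answer to lack of amino acids and to misfolded proteins, had a median of 0.47 over 7 genes in blood endothelial cells, none past 2-fold, from Trib3 (-0.67) to Atf3 (0.84). In tumor cells 5 of 8 were higher in PyMT-M, with a median of 1.56, led by Chac1 (a log2 ratio of 4.44), Trib3 (39.2 against 2.45 CPM) and Asns (3.58). Immediate early genes, which also respond to the digestion of tissue, had medians of 0.16 in blood endothelial and -2.99 in tumor cells. In the former 1 of 10 passed 2-fold, Fosb at 101 against 48.2 CPM, and in the latter 7 were lower and 1 (Jun) higher. Over all compared genes 21.0% were higher and 25.6% lower in tumor cells, and 4.17% and 6.99% in blood endothelial cells. The part of these programs in the differences of the members was not tested.

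Fibroblast cells, 58 and 63 of them, gave 7 members with at least 50 UMIs. Of these 2 were at least 2-fold higher in PyMT-M (Bak1 and Cdkn1a), where 5.85% of 6021 genes were and where 10.8% were lower, as was Bcl2. In lymphatic cells 9 members could be compared, although the 20 cells of PyMT-M held only 89004 UMIs. Cdkn1a passed 2-fold upward, and Bcl2 and Bcl2l11 downward, beside 8.87% and 14.2% of 7569 genes. Bcl2l11, on 1 UMI in PyMT-M, did not differ beyond counting error (-7.79 to 0.02). Cdkn1a fell under 2-fold with at most 5% mitochondrial UMIs (0.80), without the 5% of cells with the most UMIs (0.66) and within 2-fold of the median number of genes (0.41). It did so too without cells in more than 1 class (0.83), and was not called without cells that carry markers of other cell types.

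**Figure D4:**
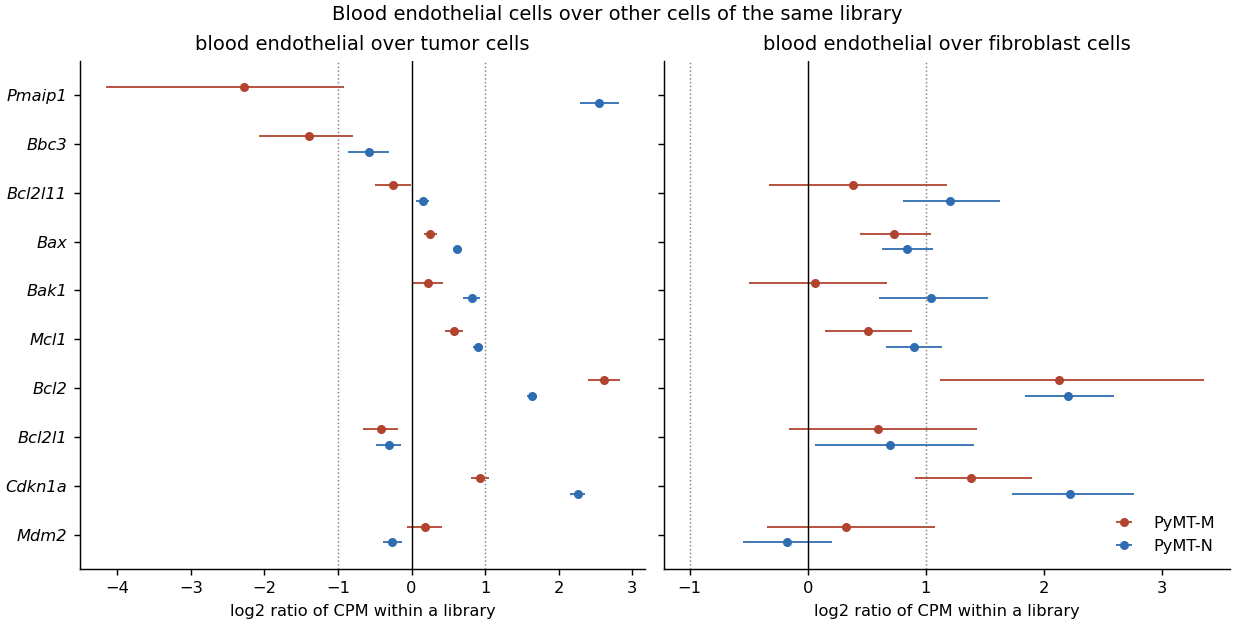
Log2 ratio of CPM in blood endothelial cells over tumor cells (left) and over fibroblast cells (right), within PyMT-M (red) and within PyMT-N (blue), for genes with at least 50 UMIs in both libraries. Bars are 95% exact intervals and dotted lines mark 2-fold. Bcl2 lay above 2-fold in both panels and both libraries, and Pmaip1 had opposite signs in the libraries, at -2.28 and 2.55.

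Read within each library, where both sides share the same preparation, 1 of the 10 members was at least 2-fold higher in blood endothelial than in tumor cells in both libraries (Bcl2), and none was lower. Over all 12486 genes compared in both, 12.6% were higher and 6.93% lower. Against fibroblast cells 2 of 8 members were higher in both (Bcl2 and Cdkn1a) and none lower, where 14.0% of 8291 genes were higher and 6.27% lower. Lymphatic over blood endothelial cells gave 1 of 8 higher (Bcl2l1) and none lower, where 2.66% of 7739 genes were higher and 3.66% lower. These comparisons share the blood endothelial cells and are not independent of each other.

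Within blood endothelial cells thinned to 3000 UMIs, members were read across states set by fixed marker lists (at least 3 UMIs of a list against none). Tip markers (Esm1, Apln, Angpt2, Kcne3, Cxcr4 and Plvap) are named for the cells that lead a sprout. They split PyMT-N into 705 cells with and 100 without them, of 1058, and PyMT-M into 410 and 15, of 480. Most cells carried them, so this split does not set apart the cells that lead a sprout. In PyMT-N the cells with tip markers held more Cdkn1a (229 UMIs in 705 cells against 15 in 100, log2 ratio 1.11, 0.36 to 1.98), Bcl2l11 (81.3 against 40.0 CPM, 1.02, 0.18 to 2.00) and Bax (226 against 137 CPM, 0.73, 0.27 to 1.23). Bcl2 was lower there, at 171 against 330 CPM (-0.95, -1.28 to -0.62). The ratios of Bcl2l1 (-0.87, -1.74 to 0.09) and Pmaip1 (1.31, -0.65 to 4.41) lay across 0, the latter on 2 UMIs in the cells without the markers. In PyMT-M Cdkn1a had the same direction (191 against 44.4 CPM, 2.10, 0.23 to 5.16) on 2 UMIs in the cells without, and the interval of Bcl2 was -1.75 to 2.16.

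Cells with interferon and chemokine markers (145 in PyMT-N and 264 in PyMT-M) held more Cdkn1a than those without in PyMT-N, at 138 against 89.1 CPM (0.63, 0.18 to 1.06), but the ratio was 0.10 (-0.23 to 0.43) when cells were thinned to 5000 UMIs and 0.38 (-0.23 to 0.95) with at least 5 marker UMIs. In PyMT-M the ratio was 0.37 (-0.16 to 0.94), and Bak1 was higher there at 66.9 against 23.5 CPM (1.51, 0.20 to 3.19), the latter from 5 UMIs, and at 5000 UMIs a cell its interval lay across 0 (-0.63 to 1.86). Cycling cells (83 in PyMT-M and 73 in PyMT-N) did not differ in Cdkn1a beyond counting error in either library, at 173 against 179 CPM and 95.9 against 105 CPM. In PyMT-M they held less Mcl1 (116 against 210 CPM, -0.85, -1.47 to -0.28) and less Bcl2l11 (16.1 against 54.3 CPM, -1.76, -3.69 to -0.32). The respective intervals in PyMT-N were -0.52 to 0.43 and -1.62 to 0.19. At 5000 UMIs a cell the Mcl1 interval in PyMT-M reached 0.01, with at least 5 marker UMIs that of Bcl2l11 reached 0.07, and in PyMT-N Bcl2l11 stood at -1.19 (-1.92 to -0.55) at 5000 UMIs.

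Cells were also split by whether a Cdkn1a UMI was drawn at the equal depth, 170 with and 310 without in PyMT-M, against 221 and 837 in PyMT-N. In both libraries the cells with one held more Bax (382 against 271 CPM in PyMT-M, 265 against 200 CPM in PyMT-N) and more Bcl2l11 (68.6 against 29.0 CPM, and 106 against 74.9 CPM), with all 4 intervals above 0. The ratios of Bcl2l1 were -0.81 and -0.70, with intervals that reached 0.03 and 0.19. Mdm2 did not differ beyond counting error in either. Among tumor cells of PyMT-N, in contrast, the cells with a Cdkn1a UMI held more Mdm2 (87.2 against 40.4 CPM, 1.11, 0.60 to 1.59) and more of the p53 target Ccng1, chosen after its values were seen (64.9 against 31.1 CPM, 1.06, 0.46 to 1.62). In tumor cells of PyMT-M these ratios were 0.27 (-0.01 to 0.55) and -0.12 (-0.60 to 0.34). Other p53 targets, Phlda3, Eda2r and Aen among them, were read in the same split, and their values are not reported here.

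**Figure D5:**
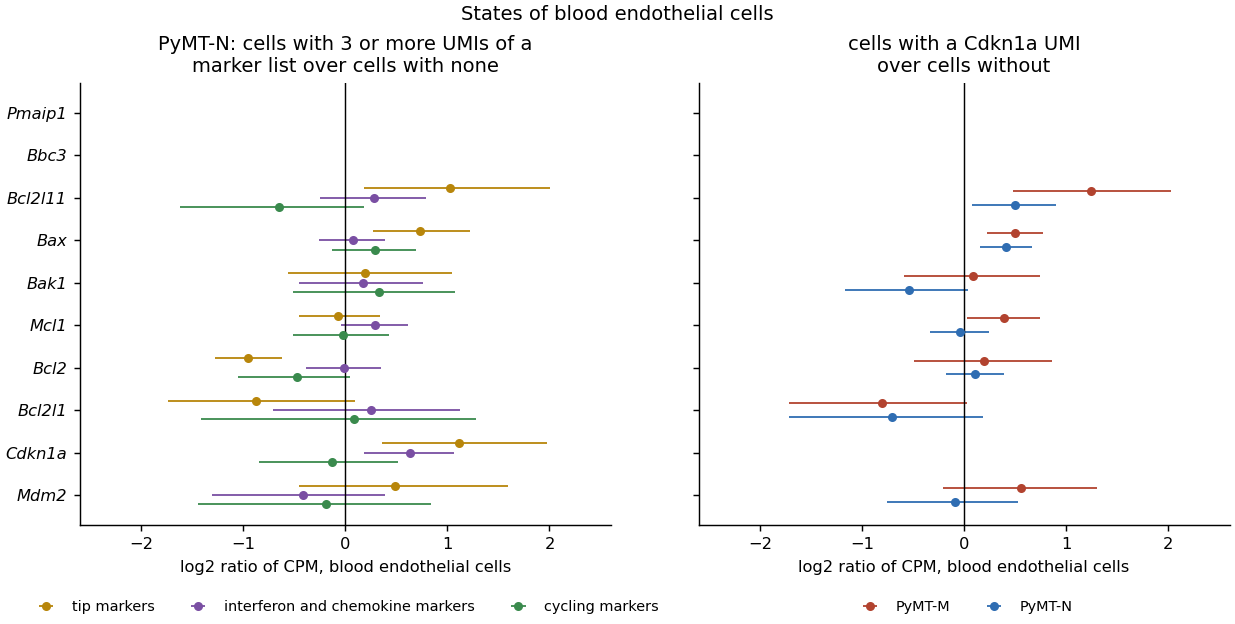
Log2 ratio of CPM in blood endothelial cells thinned to 3000 UMIs, for genes with at least 50 UMIs over both sides. Left, PyMT-N cells with 3 or more UMIs of the tip (gold), interferon and chemokine (purple) or cycling (green) markers over cells with none. Right, cells with a Cdkn1a UMI over cells without, in PyMT-M (red) and PyMT-N (blue), with 95% exact intervals. Bcl2 lay at -0.95 and Cdkn1a at 1.11 for the tip markers, and Bax and Bcl2l11 lay above 0 on the right in both libraries.

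Over the 8 sums (4 classes in 2 libraries) the genes closest in pattern to 3 members were found among 13405 genes of at least 200 UMIs, by Pearson's r of log2(CPM + 5). For Cdkn1a these were Mars2 (0.99), Tap1 (0.97) and Sncg (0.97). Tap1, which loads peptides for MHC class I, stood at 133 CPM (PyMT-M) and 64.1 CPM (PyMT-N) in blood endothelial cells, and at 70.9 and 13.0 CPM in tumor cells. For Bcl2 they were Mta2 (0.98), Rab11b (0.97) and Mospd1 (0.97), and for Pmaip1 Kidins220 (0.94), Cyfip2 (0.93) and Fzd10 (0.93). With 8 points that share libraries and classes these are descriptions of likeness in pattern, not in level or size of change. Mars2, for one, stood at 12.4 CPM in blood endothelial cells of PyMT-M, where Cdkn1a stood at 185 CPM. Some points of Pmaip1 rest on very few UMIs, 1 in lymphatic cells of PyMT-M, and 0 and 3 in fibroblast cells of PyMT-M and PyMT-N.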

How the data were processed

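For each model the authors deposited 1 matrix of raw UMI counts, made with Cell Ranger 8.0.0 on mm39 according to the submitters' processing notes. No cell annotation was used, so classes follow the marker thresholds given above, and overlapping classes were kept. Counts were summed over the cells of a class and scaled to CPM, each against the total of that class. Intervals (95%) are exact: Poisson for levels, Clopper-Pearson for shares and, for folds, that of 2 Poisson counts conditioned on their sum. They cover counting error only. A gene was compared with at least 50 UMIs over both sides and called at 2-fold, without any test, since cells are not replicates. No doublet caller was run. Instead the 5% of cells with the most UMIs were left out as an alternative.

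The members, lists and thresholds were chosen with earlier results of these data known. Beside the 10 members, the 3 highest and 3 lowest genes of each list in blood endothelial cells were named where useful, and in tumor cells the same ranks were used after values were seen. Gene spans and promoters came from RefSeq. Intervals were tested on counts simulated from the Poisson model that they assume. This checks the calculation only, since UMIs clumped in single cells were not simulated. Python 3.11.15, numpy 2.4.6, scipy 1.17.1 and pandas 2.3.3 were used. Values of some list genes are not reported here.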

Additional observations from a re-analysis of the deposited data

Results flagged for a closer look

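In 2 of the 10 genes the blood endothelial and tumor cells of the same pair of libraries differed in opposite directions, with both intervals clear of 0. For Pmaip1 the log2 ratio, PyMT-M to PyMT-N, was -3.89 in blood endothelial cells and 0.94 in tumor cells. Mdm2 had a ratio of 0.27 in blood endothelial cells and -0.16 in tumor cells, and the latter was 0.04 without mitochondrial, ribosomal-protein and hemoglobin genes in the total and 0.29 in cells without cycling markers. The blood endothelial ratio of Mdm2 had a lower limit of 0.01 and ran from 0.08 to 0.38 over the alternative settings. With 1 library per model neither difference between the classes was tested, and the intervals cover counting error only.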

How the results depend on the processing

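No paired analysis was possible because each model is 1 library and the labels give no replicate numbers. For the same reason no replicate was left out, and the spread between tumors is unknown.

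Of 98 recounts of called members under another setting, 76 stayed within 1.5 times the count reported and 22 did not, and of 1481 ratios 133 moved beyond their counting interval. In blood endothelial cells the count of 3 called members became 1 (Bcl2) in cells without cycling markers, with 8 members compared, and 5 at 1.5-fold. Bcl2 was called under all of these settings, whereas Bcl2l1 was not called at equal depth, after tumor RNA was taken off, in cells without cycling markers, or in cells within 2-fold of the median number of genes. In 2 of these settings the count stayed at 3 with another member in place of Bcl2l1. After tumor RNA was taken off this was Bcl2l11, lower in PyMT-M. Within 2-fold of the median number of genes it was Cdkn1a, higher in PyMT-M (1.00). In tumor cells the count of 3 became 5 without mitochondrial, ribosomal-protein and hemoglobin genes in the total and 6 at 1.5-fold. In fibroblast cells the count of 3 became 1 without cells that carry markers of other cell types (Dcn, Lum and Pdgfra were not counted against them), 1 with span classes centred, and 0 at equal depth, in cells without cycling markers and with at least 200 UMIs. In lymphatic cells it became 0 at equal depth and without cycling markers, 1 with at least 200 UMIs and 5 at 1.5-fold. For blood endothelial over tumor cells the count of 1 became 2 (Bcl2 and Cdkn1a) within 2-fold of the median number of genes, at most 5% mitochondrial UMIs and at equal depth, and 3 at 1.5-fold. Over fibroblast cells 2 became 4 at 1.5-fold, and for lymphatic over blood endothelial cells 1 became 0 without cells of other markers, at equal depth, without cycling markers and with at least 200 UMIs. Cdkn1a was not called over fibroblast cells in 2 settings where the count stayed at 2. The called members were Bcl2l11 and Bcl2 without cells in more than 1 class, and Bax and Bcl2 without cycling markers. With at least 200 UMIs fewer members were compared. At equal depth and without cycling markers no fibroblast member reached the count minimum, and in lymphatic cells 4 members did in each of these settings. For the other changes the cause was not tested. Among ratios past 2-fold 1 changed sign, that of Bcl2l1 in PyMT-M cells with tip markers, at -0.43 when thinned to 5000 UMIs. Smaller ratios changed sign too: Bak1 and Mcl1 in blood endothelial cells kept theirs in 13 of 16 alternatives and Mdm2 in tumor cells in 12 of 14, and Bcl2l1 in PyMT-N cells with tip markers went from -0.87 to 0.20 at 5000 UMIs. The settings on gene span, tumor RNA and states of tumor cells were added after seeing the data.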
